A study of Homo sapiens with 9 samples.

Results

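The ELAVL family comprises 4 genes in the human genome, ELAVL1, ELAVL2, ELAVL3 and ELAVL4. All 4 were found by gene ID among the 57757 gene IDs of the count and FPKM tables, and all 4 passed the filter on low counts that left 18367 genes for testing. They encode RNA-binding proteins built from RNA recognition motifs that attach to stretches rich in U, or in A and U, mostly in introns and 3′ untranslated regions (3′ UTRs) of other mRNAs. Binding generally stabilises an mRNA or alters its splicing or translation. ELAVL1 (HuR) is made in nearly all cells. ELAVL2 (HuB), ELAVL3 (HuC) and ELAVL4 (HuD) are the neuronal members, known as early markers of the neuronal fate and as antigens of paraneoplastic antibodies. They are present in neuroblastoma, a tumour of the sympathetic branch of the neural crest.

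Total RNA was sequenced from NLF, an established human neuroblastoma cell line labelled as wild type in all groups, after 48 hours with a small interfering RNA (siRNA). The design asks what follows when TBX2, a T-box transcription factor, or TBX2-AS1, the RNA transcribed opposite to it, is knocked down. The 3 groups were siNTC (a non-targeting control), siTBX2 and siTBX2-AS1, each with 3 biological replicates, so 9 libraries with 31894280 to 51434090 counts. The labels name 1 siRNA treatment per target and 1 cell line, and they give no siRNA sequence that the motifs below could be compared with.

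Expression is given as CPM (counts scaled to library size with TMM), or as FPKM, which also divides by transcript length, where levels of different genes are compared. TBX2 stood at 259.9 ± 14.1 CPM (SD, n = 3) in siNTC and 116.8 ± 9.3 in siTBX2, and fell by 1.15 on the log2 scale (edgeR quasi-likelihood test, adjusted p = 0.00734). TBX2-AS1 stood at 36.3 ± 2.0 CPM in siNTC and 3.8 ± 2.7 in siTBX2-AS1, and fell by 3.25 (adjusted p = 0.0184, called in 6 of 9 fits that each left out 1 library, with adjusted p up to 0.0651). TBX2 itself was 208.6 ± 30.5 CPM in siTBX2-AS1 (log2 fold change -0.32, adjusted p = 0.172), and counting by strand is not stated, so reads of the overlapping pair may be shared. Of the sympathetic neuroblast markers, PHOX2A, HAND2, GATA3, ISL1 and STMN2 were present at 38.19 CPM or more in every library, TH had 0 counts in all 9, and DBH, CHGA and CHGB reached at most 2.94 CPM. The summed level of 12 markers of other cell types was 147.8 to 179.7 CPM with siNTC, 161.0 to 177.9 with siTBX2, and with siTBX2-AS1 185.4 to 255.7. The defining markers KRT5 (epithelium) and SOX10 (glia) were at 0 throughout and PTPRC (leukocytes) and CDH5 (endothelium) at 0.50 CPM or less. VWF, a second endothelial marker, reached 2.44 CPM and was lower in siTBX2-AS1 than in siTBX2 (-2.35 on the log2 scale, adjusted p = 0.0349), while COL1A1 reached 152.20 CPM and PDGFRB 87.85. COL1A1 rose in siTBX2-AS1 against siNTC (0.66 on the log2 scale, adjusted p = 0.0321), and the part of these genes in the results below was not tested. In such bulk RNA, fewer cells of a kind and less RNA per cell cannot be told apart.

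The 7-mer TTAAACT, frequent in genes that fell in siTBX2-AS1, was found in the longest 3′ UTR of ELAVL4 and of no other member. Among tested UTRs of 2000 to 3000 bases, 28.5% held it. It had been singled out from these same data, and its part in the fall of ELAVL4 described below was not tested. Positions and UTRs come from GENCODE release 29 (GRCh38), whereas the authors used hg19. ELAVL4 lies at chr1:50048014-50203786 on the plus strand and its longest 3′ UTR, 2608 bases, held the 7-mer TTAAACT 2 times. The sites are printed with 10 flanking bases on each side, in the sense of the mRNA, with the 7-mer in capitals. Beside them stand the sites of ZBTB41, HINT3 and GPR180, the 3 genes whose pattern over the libraries was nearest to that of ELAVL4.
ELAVL4 at chr1:50202044-50202070, plus strand: gatgtgtgttTTAAACTggattcgtag
ELAVL4 at chr1:50202596-50202622, plus strand: atttgtttacTTAAACTatgggaagaa
ZBTB41 at chr1:197157052-197157078, minus strand: tgtagataacTTAAACTtgagtagtga
ZBTB41 at chr1:197155574-197155600, minus strand: aaaaacacagTTAAACTaatatgttta
HINT3 at chr6:125978454-125978480, plus strand: aaatcagaggTTAAACTttgcttttat
GPR180 at chr13:94629010-94629036, plus strand: aaccagttttTTAAACTttaattctta

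The longest 3′ UTRs of ELAVL1 (4904 bases; gene at chr19:7958579-8005659, minus strand), ELAVL2 (2453 bases; chr9:23690104-23826337, minus strand) and ELAVL3 (3200 bases; chr19:11451326-11481046, minus strand) held TTAAACT 0 times. A second 7-mer, CAGAATG, was counted because it was frequent among genes that fell in siTBX2. It occurred 1 time in ELAVL1 and 0 times in the other members.
ELAVL1 at chr19:7961492-7961518, minus strand: atcctgggacCAGAATGctttcctgga

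The AU-rich 7-mer TATTTAT, the core of the elements that ELAVL proteins are known to bind, occurred in all 4 members: 5 times in ELAVL1, 3 times in ELAVL2, 5 times in ELAVL3 and 2 times in ELAVL4. In ELAVL1 the 5 copies overlapped or lay close together, starting 1604 to 1638 bases after the stop codon. It was present in 35.5% of the 3′ UTRs of 12999 tested genes and in 48.6% of those of 2000 to 3000 bases, a range that holds ELAVL2 and ELAVL4 but not the longer UTRs of ELAVL1 and ELAVL3.

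**Figure D1:**
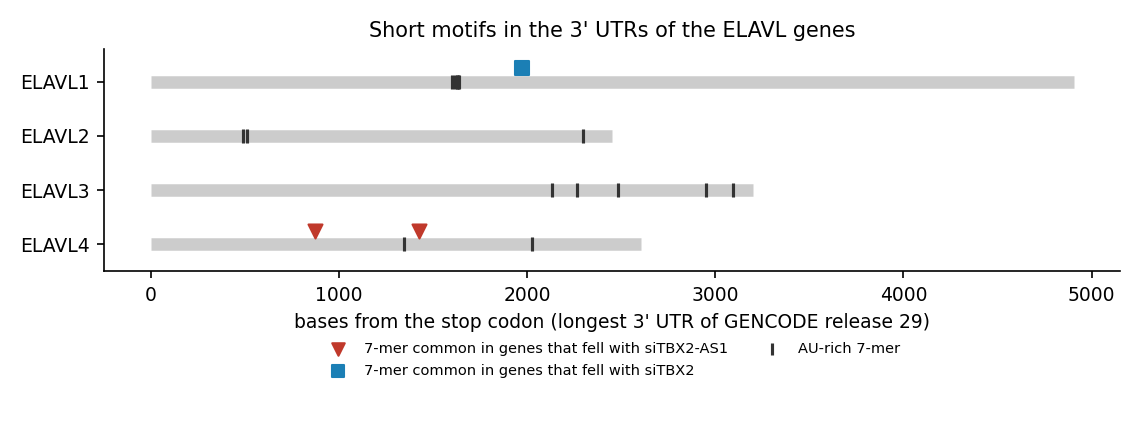
Map of the longest annotated 3′ UTR of each member (grey bar, in bases from the stop codon) with the start of each copy of 3 short motifs. The 2 red triangles, the 7-mer frequent in genes that fell in siTBX2-AS1, are on ELAVL4, the blue square, the 7-mer frequent in genes that fell in siTBX2, is on ELAVL1, and the black ticks mark the AU-rich 7-mer found in all 4.

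ELAVL1, the ubiquitous member, did not pass the test in any comparison and had the widest spread between replicates of the 4 members in siNTC and siTBX2. In siNTC its libraries held 125.7, 54.8 and 136.2 CPM. The siTBX2 libraries held 56.2, 139.7 and 99.6 CPM. The siTBX2-AS1 libraries held 99.9, 120.4 and 115.8 CPM. The groups overlapped, and 2 libraries, siNTC replicate 2 and siTBX2 replicate 1, were the low ones, at 2361 and 2647 counts against 3730 to 6406 in the other 7. The log2 fold change was -0.10 (SE 0.38, 95% interval -0.98 to 0.78, adjusted p = 0.94) in siTBX2 against siNTC and 0.09 (SE 0.38, interval -0.80 to 0.97, adjusted p = 0.938) in siTBX2-AS1 against siNTC. Between the knockdowns it was 0.19 (SE 0.39, adjusted p = 0.853). Without siNTC replicate 2, the value in siTBX2-AS1 against siNTC was -0.24 (adjusted p = 0.801), so its sign rests on that library.

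Counts divided by FPKM give an implied mean transcript length, here scaled on 499 genes with 1 annotated transcript. It can be read as a length only if counts and FPKM rest on the same assignment of reads, which is not stated. For ELAVL1 the implied length was 5.10 kb in siNTC replicate 2 and 4.88 kb in siTBX2 replicate 1, the low libraries, and 5.64 to 6.03 kb in the other 7. The genes with the most similar pattern to ELAVL1 over the 9 libraries were MYRF, SFPQ and SLC16A3, with a root mean square difference of 0.271 to 0.292 on the log2 scale, against 0.483 for the deviation of ELAVL1 from its own mean. SFPQ, a splicing factor of paraspeckles, was by that choice likewise lowest in these libraries, at 401.8 CPM in siNTC replicate 2 and 458.9 in siTBX2 replicate 1, against 536.6 to 664.2 in the other 7.

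ELAVL2, a neuronal member also known from germ cells, passed the test in no comparison and stayed between 123.0 and 166.9 CPM. It stood at 125.5, 134.9 and 138.2 CPM in siNTC. The values were 148.3, 123.0 and 166.9 CPM in siTBX2 and 130.2, 130.4 and 153.5 CPM in siTBX2-AS1. All 3 groups overlapped. The log2 fold change was 0.14 (SE 0.12, 95% interval -0.13 to 0.41, adjusted p = 0.652) in siTBX2 and 0.05 (SE 0.12, interval -0.21 to 0.32, adjusted p = 0.866) in siTBX2-AS1, both against siNTC. The intervals leave room for changes of at most 0.41 on the log2 scale in these 2 comparisons. Between the knockdowns it was -0.08 (SE 0.12, adjusted p = 0.778). Its nearest genes by pattern were NGDN, TSSK6 and TTF1, at root mean square differences of 0.040 to 0.066 against 0.137 for ELAVL2 from its own mean.

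ELAVL3, which in the nervous system is kept in mature neurons, was the lowest member in siNTC and rose in siTBX2-AS1. It stood at 15.1, 22.1 and 22.4 CPM in siNTC. The siTBX2 libraries held 17.8, 27.2 and 24.2 CPM, and the siTBX2-AS1 libraries 40.6, 37.5 and 51.3 CPM. Each siTBX2-AS1 library lay above all 6 others, whereas siTBX2 and siNTC overlapped. The mean in siTBX2-AS1 was 217.2% of that in siNTC (43.1 ± 7.3 against 19.9 ± 4.1 CPM), a log2 fold change of 1.12 (SE 0.21, 95% interval 0.64 to 1.60, adjusted p = 0.0225 in edgeR). Against siTBX2 (23.1 ± 4.8 CPM) the log2 fold change was 0.90 (SE 0.21, interval 0.42 to 1.38, adjusted p = 0.0446). In siTBX2 against siNTC it was 0.22 (SE 0.21, interval -0.26 to 0.70, adjusted p = 0.692).

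The rise of ELAVL3 kept its direction but was close to the threshold. The call against siNTC was lost without siNTC replicate 1 (0.96 on the log2 scale, adjusted p = 0.0607), siNTC replicate 2 (1.19, 0.0555), siNTC replicate 3 (1.20, 0.0502), siTBX2-AS1 replicate 1 (1.15, 0.065) or siTBX2-AS1 replicate 3 (0.97, 0.0737). The call against siTBX2 was kept only without siNTC replicate 1 (adjusted p = 0.0334), and leaving out any of the other 8 libraries gave adjusted p between 0.0583 and 0.129. The exact two-sided permutation test on the CPM of 3 against 3 libraries gave p = 0.1 in both comparisons, the smallest it can give.

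The size of the ELAVL3 difference depended on the scale, since FPKM was 12.07 ± 3.77 in siTBX2-AS1 and 4.37 ± 1.58 in siNTC, or 276.4%. The mean transcript length implied for ELAVL3 was 4.29 kb in siNTC replicate 2 and 4.46 kb in siTBX2 replicate 2, near the 4729 bases of its long transcript. In the other 7 libraries it was 2.22 to 2.95 kb, between that transcript and the short one of 1223 bases. Among the nearest genes by pattern were SALL4, a zinc-finger transcription factor of stem cells, and SCAF1. Their root mean square differences were 0.191 and 0.201, against 0.543 for ELAVL3 from its own mean.

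ELAVL4, known for promoting the outgrowth of neurites, fell in siTBX2-AS1 and was not called in siTBX2. It stood at 136.4, 139.9 and 122.5 CPM in siNTC. The siTBX2 libraries held 130.3, 129.3 and 107.0 CPM, and the siTBX2-AS1 libraries 51.7, 64.0 and 53.6 CPM, from 1726 to 2674 counts. All 3 siTBX2-AS1 libraries lay below all 6 others, and the other groups overlapped. The mean in siTBX2-AS1 was 42.4% of that in siNTC (56.4 ± 6.6 against 132.9 ± 9.2 CPM) and 43.2% on the FPKM scale. The log2 fold change was -1.24 (SE 0.12, 95% interval -1.50 to -0.97, edgeR adjusted p = 0.00114). Against siTBX2 (122.2 ± 13.2 CPM) it was -1.12 (SE 0.12, interval -1.38 to -0.85, adjusted p = 0.00144). In siTBX2 against siNTC it was -0.12 (SE 0.11, interval -0.38 to 0.14, adjusted p = 0.679). ELAVL4 was called in both siTBX2-AS1 comparisons under all 21 alternatives, with adjusted p up to 0.0152 against siNTC and 0.0223 against siTBX2. The exact permutation p was 0.1 in both, again the smallest possible.

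The mean transcript length implied for ELAVL4 was 2.64 to 2.99 kb in all 9 libraries, and 2.72 to 2.85 kb in the siTBX2-AS1 libraries, so the groups overlapped in this measure. Of its 7 coding transcripts with a 3′ UTR of at least 50 bases, the 4 with a UTR of 1116 bases or more held TTAAACT, 1 time in the UTR of 1116 bases and 2 times in those of 1876, 2592 and 2608. The 3 with UTRs of 221, 224 and 690 bases held none. The antisense gene ELAVL4-AS1 had 0 counts in every library.

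ZBTB41, HINT3 and GPR180, whose sites are printed above, were chosen for the likeness of their pattern, so their fall in siTBX2-AS1 follows from the choice and is given without a test. They differed from the pattern of ELAVL4 by a root mean square of 0.086, 0.108 and 0.111 on the log2 scale, against 0.570 for ELAVL4 from its own mean. ZBTB41, a zinc-finger gene, went from 90.6, 95.2 and 70.0 CPM in siNTC to 36.1, 44.4 and 37.3 in siTBX2-AS1. HINT3, a nucleotide hydrolase, went from 27.5, 24.8 and 23.3 CPM to 9.7, 12.9 and 10.0. GPR180 went from 62.7, 55.2 and 52.8 CPM to 25.4, 27.8 and 27.5. Each of the 3 carried TTAAACT in its longest 3′ UTR, of 5679, 2568 and 7474 bases. Since 65.8% of the genes that fell in siTBX2-AS1 against siNTC carried it, this adds no separate evidence.

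TTAAACT, searched on the mRNA strand only, was present in 20.3% of the longest 3′ UTRs of 12999 tested genes and in 28.5% of the 1831 that are 2000 to 3000 bases long, the range that includes ELAVL4. At least 2 copies, as in ELAVL4, were found in 5.0% of all and 6.0% of those of like length. Among genes that fell in siTBX2-AS1 against siNTC, 304 of 462 (65.8%) held it, against 10.2% of those that rose and 18.8% of those not called. At 2000 to 3000 bases the share was 67.6% of the genes that fell. In siTBX2 it was in 34.1% of the genes that fell and 25.7% of those that rose, at any length. At 2000 to 3000 bases these shares were 27.3% (6 of 22) and 35.3% (6 of 17), against the 28.5% of all tested. CAGAATG was present in 17.2% of all searched UTRs, in 47.4% of genes that fell in siTBX2 and in 24.0% of those that fell in siTBX2-AS1; ELAVL1, which holds it, was not called in siTBX2. Both 7-mers had been singled out from these same comparisons, so the shares are a description, and a match shows neither a functional site nor a cause.

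**Figure D2:**
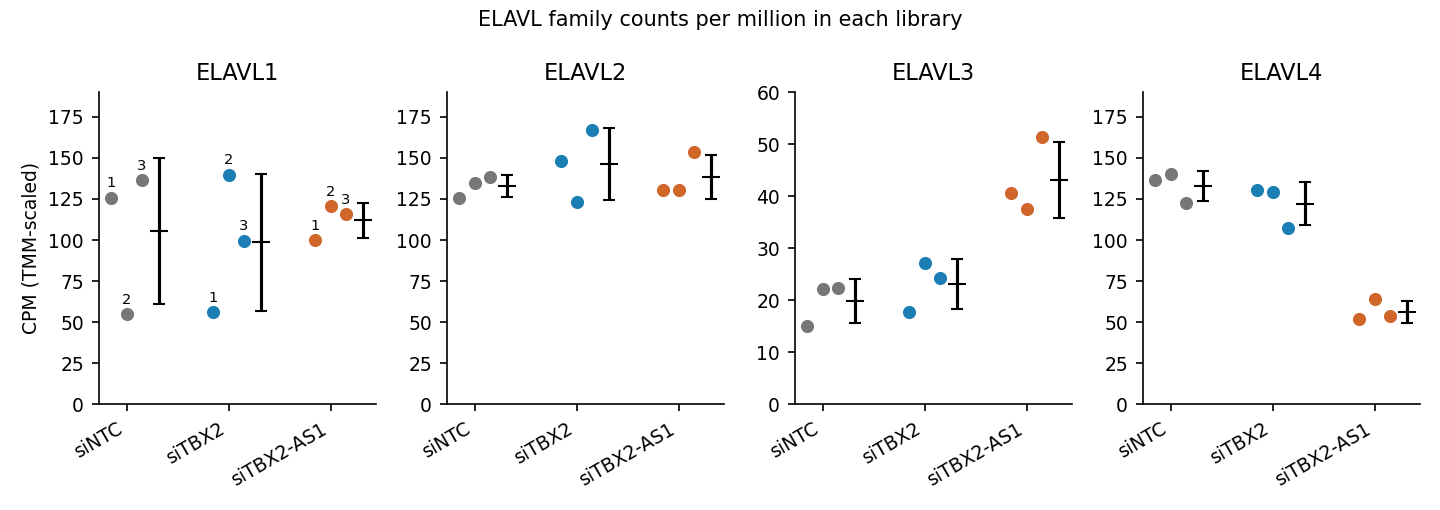
TMM-scaled CPM of each member in each library (points, replicates 1 to 3 from left to right, numbered for ELAVL1) by siRNA group, with the mean and SD in black. The scale of ELAVL3 is smaller. The 3 siTBX2-AS1 libraries lie at 37.5 to 51.3 for ELAVL3, above the other groups, and at 51.7 to 64.0 for ELAVL4, below them, while ELAVL1 shows the low libraries siNTC 2 and siTBX2 1.

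Read against all genes, 0 of 4 members were called in siTBX2 against siNTC, where edgeR called 1.61% of the 18367 genes tested (0.795% rose and 0.811% fell). The same comparison gave 0 members at an unadjusted p under 0.05, and 0 in any of the 21 alternatives, DESeq2 and limma-voom included. CPM ranges of the groups overlapped for all 4 members, and 22.8% of all genes had ranges that did not overlap. In siTBX2-AS1 against siNTC, 2 of 4 were called where 4.57% of all genes were (1.79% rose, as ELAVL3 did, and 2.78% fell, as ELAVL4 did), and the same 2 had ranges without overlap, as 24% of all genes did. In siTBX2-AS1 against siTBX2, the same 2 were called where 5.53% of all genes were (2.03% rose and 3.5% fell), and the ranges of 26.7% of all genes did not overlap. The median log2 fold change over all genes was 0.00, 0.01 and 0.01 in the 3 comparisons. The comparisons share libraries and are not independent of each other.

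**Figure D3:**
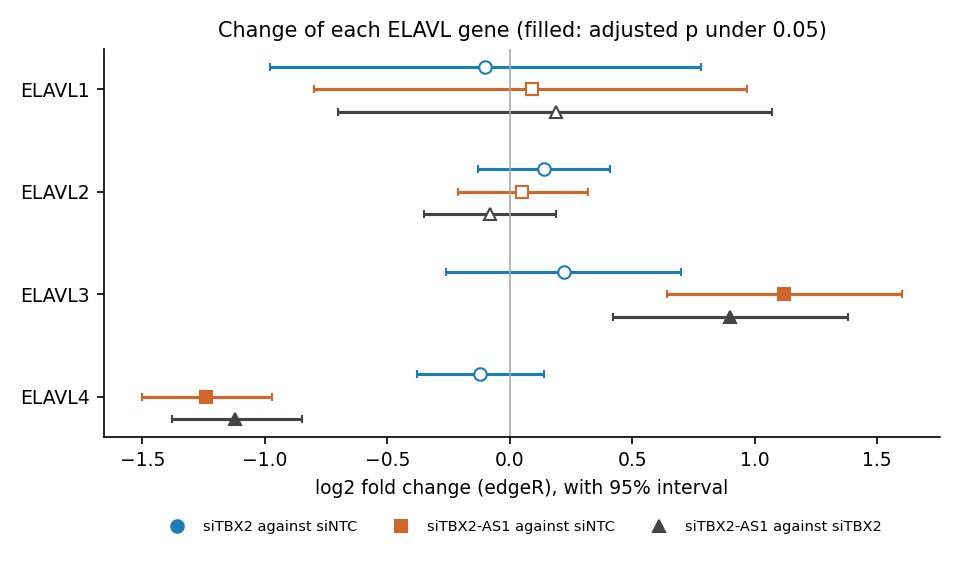
Log2 fold change of each member in the 3 comparisons (edgeR, bars are 95% intervals, filled symbols have an adjusted p under 0.05). Only ELAVL3 and ELAVL4 in the 2 comparisons with siTBX2-AS1 are filled, at 1.12 and 0.90 for ELAVL3 and -1.24 and -1.12 for ELAVL4.

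Set against each other on the length-scaled FPKM, the members took a different order in siTBX2-AS1, with ELAVL2 in place of ELAVL4 at the top. In siNTC the order was ELAVL4 (31.57 ± 3.70 FPKM), ELAVL2 (25.95 ± 0.47), ELAVL1 (12.05 ± 4.29) and ELAVL3 (4.37 ± 1.58), and no neighbours in that order overlapped between libraries. In siTBX2, ELAVL4 (27.80 ± 1.76) and ELAVL2 (27.80 ± 4.03) overlapped, followed by ELAVL1 (11.66 ± 3.79) and ELAVL3 (5.28 ± 1.45). In siTBX2-AS1, ELAVL2 led with 26.56 ± 3.91 FPKM, and ELAVL4 (13.64 ± 1.01), ELAVL1 (12.91 ± 1.26) and ELAVL3 (12.07 ± 3.77) overlapped. The order depends on the length used. As CPM per kb of the longest annotated transcript, ELAVL2 (34.9 ± 1.7) and ELAVL4 (33.5 ± 2.3) overlapped in siNTC. On that scale the siTBX2-AS1 libraries had ELAVL1 at 18.6 ± 1.8, ELAVL4 at 14.2 ± 1.7 and ELAVL3 at 9.1 ± 1.5, with no overlap among these 3, so ELAVL3 stayed the lowest member and ELAVL4 stood below ELAVL1.

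The ratio of ELAVL4 to ELAVL3, in FPKM, was 9.12, 10.28 and 4.48 in siNTC. It was 5.76, 7.19 and 3.78 in siTBX2. In siTBX2-AS1 it was 1.18, 1.57 and 0.85, below every other library. ELAVL4 supplied 42.8 ± 5.9% of the family's summed FPKM with siNTC, 38.4 ± 3.9% with siTBX2 and 21.1 ± 3.0% with siTBX2-AS1, whereas ELAVL3 supplied 5.9 ± 2.0%, 7.2 ± 1.7% and 18.2 ± 3.2%. These shares and ratios rest on FPKM, in which the length implied for ELAVL3 differed between libraries as given above. By CPM per kb of the longest transcript, ELAVL3 supplied 4.7 ± 1.1% in siNTC, 5.4 ± 0.9% in siTBX2 and 11.6 ± 1.4% in siTBX2-AS1. The ratio of ELAVL4 to ELAVL3 on that scale was 1.24 to 2.03 in siTBX2-AS1, again below the 5.27 to 10.76 of the other 6 libraries. The sum over the family was 73.9 ± 1.8, 72.5 ± 2.9 and 65.2 ± 8.7 FPKM. Single libraries of siTBX2-AS1 stood at 61.2, 59.1 and 75.2, so the third of them was within the range of the other groups, 70.7 to 75.9.

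**Figure D4:**
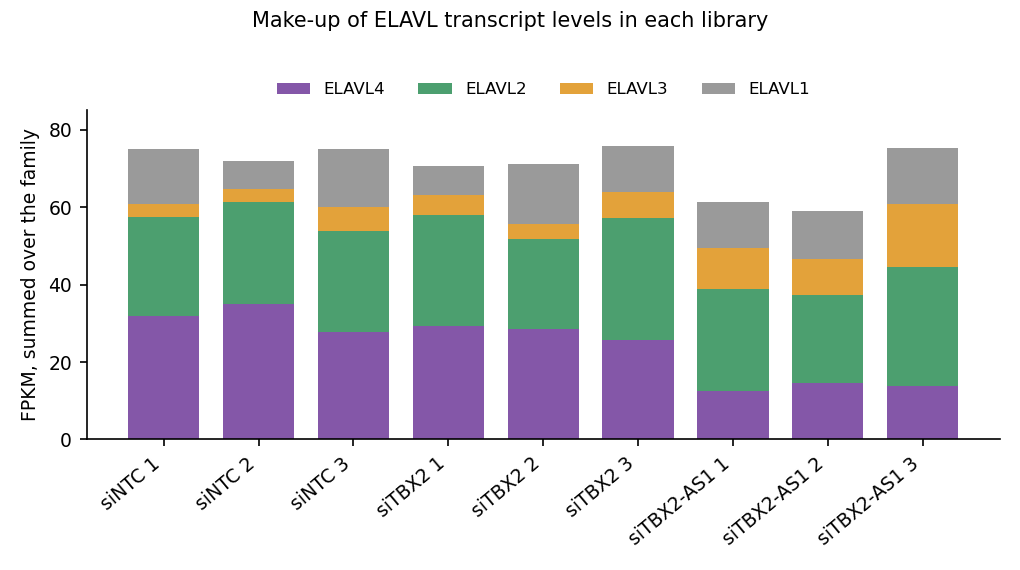
FPKM of the 4 members stacked for each of the 9 libraries, with the summed FPKM of the family on the vertical axis. The purple ELAVL4 part is shorter and the orange ELAVL3 part taller in the siTBX2-AS1 libraries, while the total runs from 59.1 to 75.9.

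Proteins that share targets with the ELAVL family were taken from a list of 23 AU-rich element binding proteins, of which 22 were tested. In siTBX2-AS1 against siNTC, 2 fell and 1 rose, where 2.78% of all genes fell and 1.79% rose, and the median was -0.05. RC3H2, a roquin that promotes decay of its targets, went from 221 ± 10.3 to 111 ± 13.5 CPM (a log2 difference of -0.99, SE 0.09, adjusted p = 0.00114), and HNRNPA0, an RNP protein of the nucleus, went from 234 ± 5.73 to 164 ± 18 CPM (-0.51, SE 0.09, adjusted p = 0.0164). Both hold TTAAACT in their 3′ UTR, 2 copies in RC3H2 and 1 in HNRNPA0, as 65.8% of the genes that fell do. Both also hold CAGAATG, 1 copy in RC3H2 and 2 in HNRNPA0. Neither was called in siTBX2 against siNTC (-0.17 and 0.22, edgeR adjusted p = 0.417 and 0.275). RC3H2 was called in all 9 fits that left out 1 library and HNRNPA0 in 6. YBX1, a cold-shock protein that packages mRNA, was the member that rose, by 0.27 (adjusted p = 0.0449), and in siTBX2 it was the 1 member called, rising by 0.33 (adjusted p = 0.0443, list median 0.03), where 1.61% of all genes were called. Neither YBX1 call held in any of those 9 fits. Against siTBX2 the 2 called members were again RC3H2 (-0.82) and HNRNPA0 (-0.72), where 5.53% of all genes were called.

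Among 32 neuronal RNA-binding and splicing proteins, 26 were tested, with medians of 0.04 in siTBX2 and -0.06 in siTBX2-AS1. CELF3, a neuronal splicing regulator of the CUGBP and Elav-like family, rose in siTBX2-AS1. It stood at 0.294, 0.603 and 0.566 CPM with siNTC, 0.403, 0.765 and 0.482 with siTBX2, then 2.7, 3.92 and 3.79 with siTBX2-AS1, where each library was above all 6 others. The log2 fold change against siNTC was 2.83 (SE 0.35, adjusted p = 0.0042), and it was called under all 21 alternatives. Its size ranged from 0.78 to 3.0, the lowest on log2(FPKM + 1), a scale that understates changes of low genes. CELF3 was the 1 gene of the 26 called there, where 4.57% of all genes were. In siTBX2, edgeR called 0 of the 26, with 3 higher and 2 lower at an unadjusted p under 0.05, and DESeq2 called 3 and limma-voom 1. Over all genes, edgeR called 295 there, DESeq2 1201 and limma-voom 313. In siTBX2-AS1 against siTBX2, 1 of the 26 rose and 2 fell, where 2.03% and 3.5% of all genes did. CELF3 was at 2.65 (edgeR adjusted p = 0.00432). RBFOX2, a splicing regulator, was at -0.52 (adjusted p = 0.0038), but at -0.23 and not called on the FPKM scales, with adjusted p up to 0.343. MSI1, a translational regulator of neural progenitors, was at -0.46 (adjusted p = 0.0398). The MSI1 call held in 1 of 9 fits with a library left out.

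Of 18 partners and modifying enzymes of ELAVL proteins, all tested, CDK1 was the 1 called in siTBX2-AS1 against siNTC (list median -0.02), a share near the 4.57% of all genes called. CDK1, the mitotic kinase that phosphorylates HuR, was at 187, 197 and 166 CPM in siNTC and 89.1, 102 and 102 in siTBX2-AS1. It fell by 0.91 (SE 0.09, adjusted p = 0.00114), was called under all 21 alternatives, and holds 1 copy of TTAAACT in its 3′ UTR. Against siTBX2, 2 of the 18 fell, where 3.5% of all genes did. CDK1 was at -1.05, and PARP1, which modifies HuR with poly(ADP-ribose), at -0.31 (edgeR adjusted p = 0.0111). PARP1 was not called on the FPKM scales, with adjusted p up to 0.347. In siTBX2 against siNTC edgeR called 0 of the 18, with 3 higher and 1 lower at an unadjusted p under 0.05. DESeq2 called 1 there and limma-voom 0, where over all genes they called 1201 and 313, and the list median was 0.12.

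Messenger RNAs described as targets of the neuronal members were 21, of which 18 were tested. GAP43, the growth-cone protein whose mRNA is a classic target of ELAVL4, fell in siTBX2 and was not called in siTBX2-AS1. Its libraries held 151, 119 and 131 CPM with siNTC, 69.4, 65.5 and 73 with siTBX2, then 126, 105 and 112 with siTBX2-AS1. The siTBX2 libraries were below all others. The log2 fold change was -0.94 (SE 0.11, adjusted p = 0.00878) in siTBX2 and -0.22 (SE 0.11, adjusted p = 0.314) in siTBX2-AS1, and the direct comparison of siTBX2-AS1 with siTBX2 gave 0.72 (SE 0.11, adjusted p = 0.00712). GAP43 was lower in the group in which ELAVL4 was not called, and its change was not called in the group in which ELAVL4 fell. Any effect of ELAVL4 on GAP43 was not tested.

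MYCN, the amplified oncogene of many neuroblastomas and a described target of ELAVL4, stood at 234, 287 and 269 CPM in siNTC. It was at 430, 419 and 449 in siTBX2 and at 348, 347 and 343 in siTBX2-AS1, without overlap between any groups. It rose by 0.72 (SE 0.08, adjusted p = 0.00849) in siTBX2 and by 0.39 (SE 0.08, adjusted p = 0.0258) in siTBX2-AS1. The call in siTBX2-AS1 held in 3 of 9 fits that left out 1 library and that in siTBX2 in all 9. Between the knockdowns MYCN was at -0.32 (adjusted p = 0.0485), a call that held in 2 of the 9. SATB1, a chromatin organiser, rose by 0.59 in siTBX2 (adjusted p = 0.0472), and ID1, an inhibitor of neuronal differentiation factors, fell by 0.44 in siTBX2-AS1 (adjusted p = 0.047). These calls held in 0 and 1 of the 9 fits. The list thus had 2 members that rose and 1 that fell in siTBX2 (median 0.22) and 1 of each in siTBX2-AS1 (median 0.17). Over all genes, 1.61% and 4.57% were called, with medians of 0.00 and 0.01.

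Of 28 mRNAs described as targets of ELAVL1, 25 were tested. In siTBX2-AS1 against siNTC, 2 of the 25 fell, where 2.78% of all genes did: ACTB, cytoplasmic actin, from 2424 ± 89 to 1919 ± 50.9 CPM (-0.34, SE 0.05, adjusted p = 0.00814) and CCNB1, cyclin B1, from 226 ± 5.07 to 185 ± 6.65 CPM (-0.29, SE 0.06, adjusted p = 0.04). In siTBX2, CCNB1 rose to 285 ± 15.3 CPM (0.34, SE 0.06, adjusted p = 0.0439), and the log2 fold change between the knockdowns was -0.62 (adjusted p = 0.00133). With 1 library left out, the CCNB1 calls against siNTC held in 2 of 9 fits for siTBX2-AS1 and 0 of 9 for siTBX2, whereas the direct one held in all 9, as did that of ACTB. On the FPKM scales neither of these was called, with adjusted p up to 0.143 and 0.206. The list medians were 0.15 in siTBX2 and 0.05 in siTBX2-AS1. ACTB, CCNB1, GAP43, MYCN, ID1, SATB1 and CELF3 held 0 copies of TTAAACT in their 3′ UTRs.

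**Figure D5:**
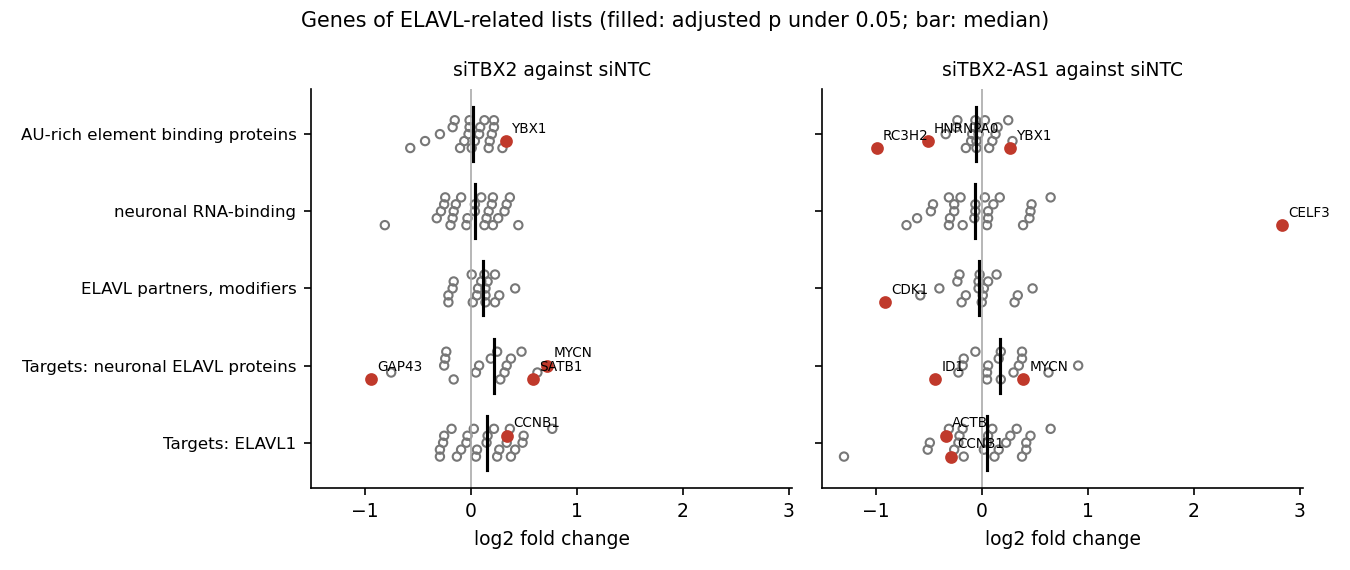
Log2 fold change of every tested gene of 5 lists in siTBX2 and siTBX2-AS1 against siNTC (edgeR, filled and named at an adjusted p under 0.05, the bar is the list median). The called genes include CELF3 at 2.83, RC3H2 at -0.99 and CDK1 at -0.91 on the right and GAP43 at -0.94 and MYCN at 0.72 on the left, some uncalled genes lie as far from 0, and the medians lie between -0.06 and 0.22.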

How the data were processed

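RNA sequencing of 9 libraries was analysed from 2 tables. The table of expected counts deposited by the authors holds whole numbers per gene, which differ in their totals between libraries. These counts were rounded to integers before the fits, and 100.0% of the values were whole already. The second holds FPKM as deposited by the authors and served for levels between genes and as an alternative scale. Per the submitters' processing notes, FastQC, STAR 2.4.2a, StringTie 1.3.3 and hg19 were used. The annotation, the counting program and its use of strand are not given in the sources used here. Per the labels' protocols, libraries came from a stranded kit with ribosomal RNA depletion.

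In R 4.3.3, edgeR 4.0.16 (filterByExpr, TMM, robust quasi-likelihood F tests on all 9 libraries) tested 18367 genes in 3 comparisons, with Benjamini-Hochberg adjustment over all of them. Rose, fell and called mean an adjusted p under 0.05. SE and 95% intervals are those of the log2 fold change. The labels call the replicates biological, and nothing further is said of the cultures. Alternatives tried were upper-quartile scaling, size factors of DESeq2, 2 other filters, DESeq2 1.42.0, limma-voom (limma 3.58.1), limma on log2(FPKM + 1) and log2(FPKM + 0.1), only the groups compared, a replicate block, and each library left out. The edgeR analysis was tested on simulated data. The deposited gene IDs gave symbols for 52286 of 57757.

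Named genes were the 4 members, other genes named ELAVL, TBX2 and TBX2-AS1, up to 4 called members of each of 7 lists with the smallest adjusted p against siNTC, and the 3 genes nearest to each member by root mean square difference of centred log2 CPM over the 9 libraries (mean log2 CPM of at least 2). Some genes that this rule or the lists include are not reported here. PARP1, RBFOX2 and MSI1 were named after their values were seen, as were the markers. The 7-mers were counted in the longest 3′ UTR, of at least 50 bases, of each gene of GENCODE release 29. The members, lists and 7-mers were chosen with earlier results of these data known. Figures were made in Python 3.11.15 with matplotlib 3.10.9.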

Additional observations from a re-analysis of the deposited data

How the results depend on the processing

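ELAVL4 kept its direction and its call in both siTBX2-AS1 comparisons under all 21 alternatives, from -1.35 to -1.15 against siNTC and from -1.21 to -0.98 against siTBX2. ELAVL3 was higher in siTBX2-AS1 in every alternative but passed the threshold against siNTC in 13 of 21 and against siTBX2 in 8 of 21. Against siNTC it was not called by limma on log2(FPKM + 1), with a filter or without (both 1.28), nor in 5 of the 9 fits without 1 library (0.96 to 1.20 over the 9). Against siTBX2 it was not called on log2(FPKM + 1) with or without a filter (both 1.05), on log2(FPKM + 0.1) (1.17) or with only the 2 groups compared (0.90), and leaving out 1 library gave 0.75 to 1.04, called in 1 of 9. Leaving out siNTC replicate 2 and siTBX2 replicate 1 together, an alternative chosen after seeing the data, gave 1.19 and 0.75 for ELAVL3, -0.24 and -0.09 for ELAVL1, and 33, 303 and 306 called genes in the 3 comparisons.

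Uncalled values changed sign when 1 library was left out: ELAVL1 ranged from -0.45 to 0.16 in siTBX2, -0.24 to 0.30 in siTBX2-AS1 and -0.09 to 0.52 between the knockdowns, and ELAVL2 from -0.04 to 0.09 in siTBX2-AS1 and -0.19 to 0.02 between the knockdowns. The reversed values were 0.04, 0.11 and 0.16 for ELAVL1 in siTBX2 (without siNTC replicate 1, siNTC replicate 3 and siTBX2 replicate 1), -0.24 in siTBX2-AS1 (without siNTC replicate 2) and -0.09 between the knockdowns (without siTBX2 replicate 1), and for ELAVL2 -0.04 (without siTBX2-AS1 replicate 3) and 0.02 (without siTBX2 replicate 3).

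The number of called genes moved most. In siTBX2 against siNTC it was 295, and 184 without a filter, 1201 with DESeq2, 37, 33 and 5 with limma on log2(FPKM + 1), log2(FPKM + 0.1) and log2(FPKM + 1) without a filter, 52 with only the 2 groups, and 44 to 177 with 1 library left out. In siTBX2-AS1 against siNTC it was 840, and 1802 with DESeq2, 325, 344 and 230 on the FPKM scales, 461 with only the 2 groups, and 402 to 654 with 1 library left out. In siTBX2-AS1 against siTBX2 it was 1015, and 2168 with DESeq2, 441, 421 and 273 on the FPKM scales, and 469 to 918 with 1 library left out. The causes were not tested.

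The replicate numbers were not taken as pairs, since the correlation of same-numbered deviations was 0.073 to 0.243 over 9 pairs and not above 0.1 in all. Pairs with different numbers were at -0.219 to 0.024. All 9 libraries correlated best with their own number, a hint from the data and not from the design. A replicate block gave 873, 1741 and 2084 called genes and changed no call of a member. With the block, the edgeR adjusted p of ELAVL3 in siTBX2-AS1 was 0.0106 against siNTC and 0.0169 against siTBX2.

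DESeq2 called more genes of several lists: 6 against 2 AU-rich element binding proteins between the knockdowns, 6 against 1 neuronal RNA-binding protein and 2 against 1 partner in siTBX2-AS1, 4 against 2 neuronal targets between the knockdowns, and 4 against 1 and 4 against 2 ELAVL1 targets in siTBX2 and siTBX2-AS1. Over all genes DESeq2 called 1201 in siTBX2, 1802 in siTBX2-AS1 and 2168 between the knockdowns, against 295, 840 and 1015 in edgeR. Some lists grew by more than the whole did, such as 6 against 1 in siTBX2-AS1, where all genes went from 840 to 1802. Whether any list exceeded all genes under DESeq2 was not tested, so the higher counts are not read as a result about the lists. Scaling moved the median gene by at most 0.03. With 3 libraries a group, exact tests cannot go below p = 0.1.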

Other observations

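The genes nearest to ELAVL1 and ELAVL2 were chosen by their pattern, and their values are a description. MYRF, a membrane-bound transcription factor, had its lowest values in siNTC replicate 2 and siTBX2 replicate 1, at 7.3 CPM in each, against 10.3 to 13.1 in the other 7 libraries, and SLC16A3, a lactate transporter, had 3.2 and 2.9 CPM there against 3.5 to 5.2. NGDN, a gene whose protein takes part in ribosome assembly and translational control, ran from 36.0 to 48.4 CPM with its highest value in siTBX2 replicate 3, the library in which ELAVL2 was also highest at 166.9. The mean transcript length implied for ELAVL2 was 3.38 to 3.63 kb in all 9 libraries, close to the 3691 to 3805 bases of its transcripts with the long 3′ UTR.

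Among the neuroblast markers, STMN2, a growth-cone protein that marks neurons, was at 95.7 ± 26.8 CPM in siNTC, 49.1 ± 10.6 in siTBX2 and 115 ± 18.1 in siTBX2-AS1, and differed between the knockdowns (log2 fold change 1.22, SE 0.23, edgeR adjusted p = 0.0209) as GAP43 did. COL1A1, a fibroblast collagen, rose in siTBX2-AS1 from 86.1 ± 10.1 to 137 ± 22.5 CPM (0.66, adjusted p = 0.0321), a call that held in 3 of 9 fits with 1 library left out.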
